A study of Malus domestica with 8 samples.

Results

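The 200 most abundant leaf features of the apple cultivar 'Gala' (Malus domestica) were the 200 of 52311 annotated features chosen by the highest mean TPM (a transcript level per length that sums to the same total in each library) over 8 RNA-seq libraries. The libraries came from 3 CRISPR/Cas9 knock-out lines of MdAGG, named mdagg-2, mdagg-3 and mdagg-4, and from non-transformed plants (wt), with 2 libraries (R1 and R2) in each of the 4 groups. Every group, wt included, was grown from micropropagated plants for 8 weeks in a greenhouse, was sprayed with ASM (acibenzolar-S-methyl, 0.2 g/l) and sampled 3 days later, so the libraries hold no untreated leaves. Each library was a bulk of leaves, and transformed plants without the knock-out are not among the samples. All 200 members passed the filter on low counts, as did 32373 features in all. The values that chose the members are levels averaged over all 8 libraries, and these levels and ranks are given below as description, without a test. The choice used no difference between libraries or groups.

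Messenger RNA in a green leaf is distributed very unevenly: a small number of genes, among them nuclear genes for light harvesting, carbon fixation and photorespiration, commonly supply a large part of all transcripts, while most genes supply very little each. Because sequencing measures parts of a whole, a gain in the abundant part lowers the measured share of everything else. MdAGG encodes an apple agglutinin, a carbohydrate-binding protein, and ASM is a synthetic inducer of the defence that salicylic acid triggers. The deposited files give identifiers without gene names, and the apple reference table held 0 of the 52311 identifiers. Members are therefore described by identifier, level, length and pattern, and no function is given for any of them. For the same reason MdAGG itself was not checked in the lines, and the leaf label was not checked against marker genes.

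Total estimated reads ranged from 28591909 to 36995911 per library, and 36307 to 37775 features had a value above 0. The libraries mdagg-2 R1 and mdagg-4 R2 stood apart from the rest, at opposite ends of the first principal component, and the main results are also given without them.

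The members held between 26.1% and 36.8% of all TPM. Their share was 36.8% and 31.5% in the mdagg-2 pair, 33.7% and 34.7% in the mdagg-3 pair, 31.0% and 26.1% in the mdagg-4 pair, and 33.9% and 27.9% in wt. The wt libraries thus lay inside the range of the 6 knock-out libraries, and the lowest and the highest share were both found among the lines. The group means were 34.2 ± 3.74% in mdagg-2, 34.2 ± 0.758% in mdagg-3, 28.5 ± 3.45% in mdagg-4 and 30.9 ± 4.28% in wt (SD, n = 2 each). The pooled SD within groups was 3.35 percentage points, and the SD of the 4 group means was 2.74. The share averaged 32.3 ± 3.71% over the knock-out libraries (SD, n = 6) and 30.9 ± 4.28% over the wt libraries (SD, n = 2), a difference of 1.4 percentage points (exact permutation test over 28 splits, two-sided p = 0.714, where the smallest possible p is 0.0714). Without wt R2 the difference was -1.63 percentage points, so its direction rested on that library. Without mdagg-2 R1 and mdagg-4 R2 it was 1.82. Line by line the difference from wt was 3.26 percentage points for mdagg-2, 3.29 for mdagg-3, and -2.35 for mdagg-4 (exact permutation p = 0.667 for each, where the smallest possible p is 0.333). In a bulk of leaves, a different mix of cells and a different level in each cell cannot be told apart.

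**Figure D1:**
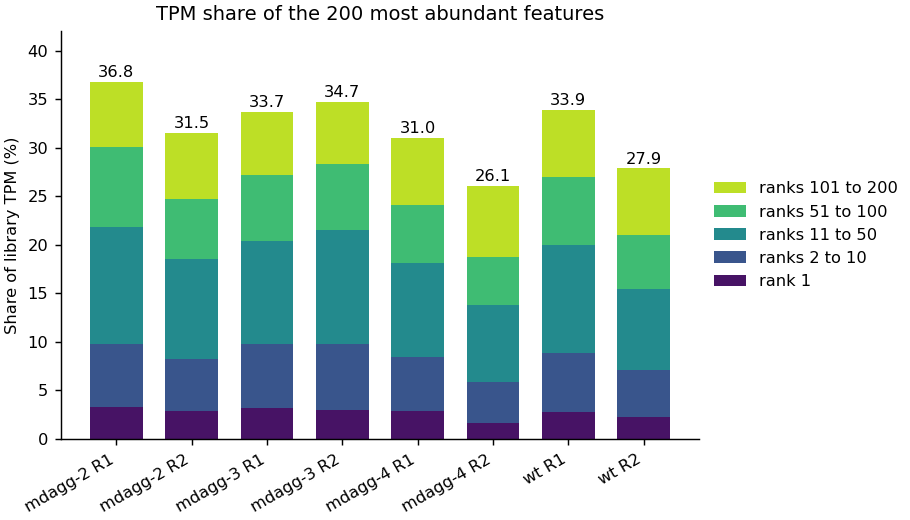
Share of library TPM (%, vertical axis) held by the 200 members in each of the 8 libraries, stacked by rank of mean TPM, with the total above each bar. The totals run between 26.1% in mdagg-4 R2 and 36.8% in mdagg-2 R1, and the 2 libraries of mdagg-2, mdagg-4 and wt differ more from each other than those of mdagg-3.

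The same features took a smaller part of the reads, which are not divided by length. Their share of estimated reads was 24.9% and 20.2% in the mdagg-2 pair, 22.8% and 22.6% in the mdagg-3 pair, 20.2% and 16.5% in the mdagg-4 pair, and 22.6% and 17.95% in wt. The 95% Wilson interval of each read share reached 0.0121 to 0.015 percentage points to either side, which covers counting error only. Differences between libraries were therefore far larger than counting error, and they were of like size within and between groups. The share is itself a measure of concentration, and libraries with a larger share mostly needed fewer features for a given part of TPM. The first 25% of TPM came from 63 features in mdagg-2 R1 and from 162 in mdagg-4 R2, against 82 and 147 in the wt libraries. For 50% it took 597 features in mdagg-2 R1 and 1113 in mdagg-4 R2, against 746 and 919 in wt. The order of the libraries was not the same throughout. For 50%, mdagg-2 R2 took 881 features and mdagg-4 R1, with a smaller share, 786. Likewise mdagg-3 R2 took 743 and mdagg-3 R1, with a smaller share, 683.

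The most abundant feature by far was MD17G1244400, 895 bases long. It was at 33217 and 28402 TPM in the mdagg-2 pair, 32116 and 29852 in the mdagg-3 pair, 29055 and 16886 in the mdagg-4 pair, and 27900 and 23087 in wt. It held rank 1 in all 8 libraries and 1.69% to 3.32% of all TPM, and mdagg-4 R2 was the lowest. MD15G1428700, a feature of 435 bases, followed with 11268 and 7442 TPM in the mdagg-2 pair, 10264 and 8165 in the mdagg-3 pair, 9202 and 6061 in the mdagg-4 pair, and 8420 and 7530 in wt. R1 was above R2 in every group, and the wt values lay inside the range of the lines. MD05G1289300 was at 7611 and 9432 TPM in the mdagg-2 pair, 6281 and 10187 in the mdagg-3 pair, 7037 and 8137 in the mdagg-4 pair, and 9409 and 5807 in wt. Here R2 was the higher library in all 3 lines and the lower one in wt.

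MD17G1079900, a feature of 396 bases, varied most among the 10 most abundant members. It was at 3855 and 2449 TPM in the mdagg-2 pair, 12769 and 10137 in the mdagg-3 pair, 7943 and 665 in the mdagg-4 pair, and 6532 and 8132 in wt, a 19.2-fold range. Both mdagg-3 libraries were above both wt libraries and both mdagg-2 libraries were below them, while in mdagg-4 R1 lay between the wt values and R2 below both. edgeR's quasi-likelihood test gave a log2 difference of 0.77 ± 0.96 for mdagg-3 minus wt and -1.13 ± 0.97 for mdagg-2 minus wt (SE, adjusted p = 1.0 and 0.998), and -0.37 ± 0.77 for the mean of the lines minus wt (adjusted p = 1.0). MD09G1252100 was at 8767 and 5552 TPM in the mdagg-2 pair, 8563 and 6394 in the mdagg-3 pair, 6946 and 2859 in the mdagg-4 pair, and 6511 and 5232 in wt, with R1 above R2 in each group. MD17G1281900 was at 5205 and 7702 TPM in the mdagg-2 pair, 4629 and 7867 in the mdagg-3 pair, 4640 and 5823 in the mdagg-4 pair, and 7693 and 3653 in wt, with R2 the higher library in the lines and R1 in wt.

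The highest level was 1.97, 1.86 and 1.75 times the lowest for the 3 most abundant members in order. For 3 of the other members of the first 10 the ratio was of like size, at 1.63, 1.89 and 1.91. MD09G1122500 was at most 7901 TPM in mdagg-3 R2 and at least 4850 in wt R2, MD17G1113400 at most 7193 in mdagg-2 R1 and at least 3814 in wt R2, and MD12G1187100 between 4106 in mdagg-4 R2 and 7836 in mdagg-3 R1, with 5013 and 5058 in wt. MD15G1346300 was at 8920 TPM in mdagg-2 R1 and between 2668 and 4687 in the other knock-out libraries, with 3840 and 4095 in wt. That feature is 197 bases long, with a mean effective length of 46.0 bases, so its TPM rests on a small divisor, and it ranked 682 when features were ordered by their share of reads. Together the 10 features held 5.85% of TPM in mdagg-4 R2 and 9.83% in mdagg-2 R1, the lowest and the highest library, with 8.86% and 7.13% in wt.

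**Figure D2:**
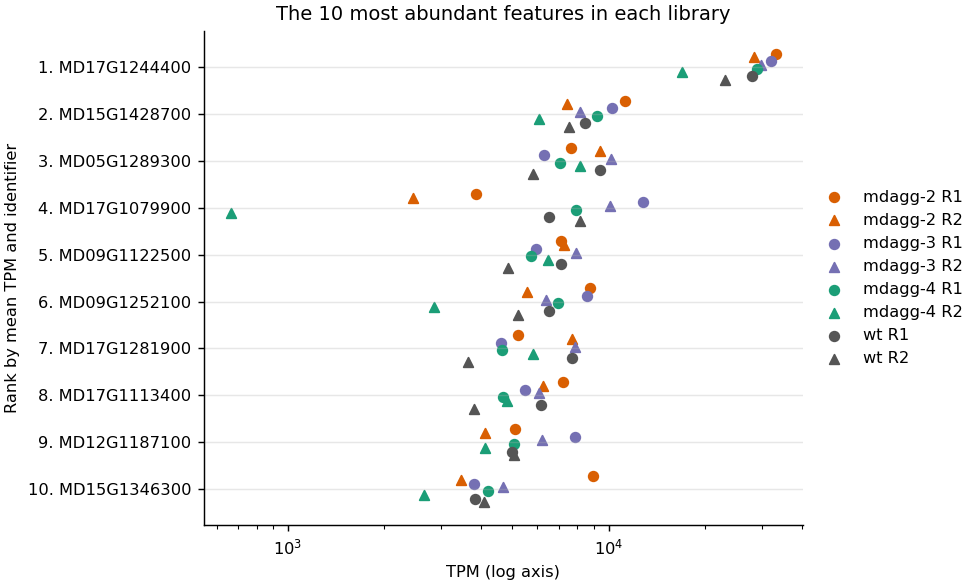
TPM (log axis) of the 10 members with the highest mean TPM in each library, with circles for R1, triangles for R2 and one colour per group, the lines above wt in the legend. The first feature lies apart at 16886 to 33217 TPM, and the fourth spreads between 665 and 12769 TPM.

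The rank order below the first feature was only partly shared. Each library had 164 to 186 of the 200 members among its own first 200 features, 118 members were there in all 8 libraries, and 316 features were there in at least 1. Within the members, Spearman's rho between the TPM of 2 libraries was at a median of 0.747 for the 4 pairs of 1 group (0.679 to 0.917) and 0.816 over the 24 pairs from different groups (0.405 to 0.932). Libraries of a group were thus no closer in rank order than libraries of different groups. Pairs share libraries and members share a genome, so these values are descriptive. The member with the lowest rank in any library was MD09G1163100, chosen for that after its values were seen. It was at 1584 and 24.6 TPM in the mdagg-2 pair, 962 and 1437 in the mdagg-3 pair, 313 and 34.9 in the mdagg-4 pair, and 685 and 401 in wt, which placed it at rank 69 at best and 6670 at worst. With a 64.5-fold range it spread more than any other member, and the spread was within mdagg-2 and within mdagg-4.

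At the edge of the list levels changed little with rank. MD15G1216500, at rank 200, had a mean of 512 TPM (257 to 625.2), and MD10G1195700, the first feature outside, had 510 TPM (331 to 744). Ranking by the median TPM in place of the mean kept 196 of the 200. Ranking by share of reads kept 125.

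The members were shorter than the other features tested. Their median length was 888 bases (quartiles 520.5 and 1270), against 1515 bases (984 and 2184) over all features tested. Under 300 bases there were 19 members (9.5%), against 1.34% of all features tested, and 16 had a mean effective length under 100 bases. Over all 52311 features, from which the members were chosen, the median length was 1099 bases and 15.4% were under 300 bases. The members were thus shorter at the median than these as well, but held a smaller part under 300 bases. Salmon computes TPM by dividing reads by the effective length, so short features count more towards TPM than towards reads. The members were chosen by TPM, so their lengths follow in part from the choice. The 19 short members held 2.31% to 3.99% of TPM and 0.126% to 0.237% of reads. The lowest member by reads was MD12G1152700, of 148 bases, at rank 13467 by reads and rank 128 by TPM. A member had a median of 21511 reads per library and at least 159, so counting error alone was 0.682% at the median and 7.93% at the lowest value. Estimated counts were whole numbers in all 8 libraries for 2 of the 200 members (1.0%), against 25.3% of all features tested. An estimate that is not whole arises when Salmon divides reads that match more than 1 feature, so the level of a single member may include reads of a close copy. Deep features have more chances to hold such a read, and the part that was divided was not measured.

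Identifiers of the members fell in all 18 fields. The 2-digit field of an apple identifier stands for the chromosome, and 00 for features not placed on one. Field 15 had the most members, 19 of 2949 features tested, and field 08 the fewest, 6 of 1546. By level, field 17 led with a mean of 5.55% of TPM, of which MD17G1244400 held 2.76%. There were 3 pairs of members that were direct neighbours in identifier order. MD05G1289200 and MD05G1289300 had a correlation of 0.955 in log2 CPM over the 8 libraries, MD10G1265300 and MD10G1265400 had 0.956, and MD15G1216400 and MD15G1216500 had 0.526. The first 2 pairs are of similar length within the pair (798 and 923 bases, and 876 and 841 bases), and reads shared between close copies cannot be told apart from a shared level.

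The members were not steadier than less abundant features. On the scale log2(TPM + 0.5) the SD within groups had a median of 0.353 for the members, a factor of 1.28, against 0.288 over all features tested, 0.327 for the next 800 features and 0.235 for ranks 1001 to 5000. The 90th percentile of this SD was 1.01 for the members and 0.601 for all features tested, so the members included more with a wide spread. The SD of the 4 group means had a median of 0.244 for the members and 0.184 for all features tested. The variance between groups relative to that within groups, scaled so that equal spread gives 1, had a median of 0.994 for the members and 0.858 for all features tested, and it was above 1 for 99 of 200 members (49.5%) and for 43.4% of all features tested. The range over the 8 libraries had a median of 2.15-fold, 110 members ranged over more than 2-fold and 27 over more than 4-fold. The steadiest member was MD01G1108500, with a coefficient of variation of 8.16% and levels of 774 and 637 TPM in the mdagg-2 pair, 699 and 683 in the mdagg-3 pair, 696 and 632 in the mdagg-4 pair, and 607 and 627 in wt. It was named after its values were seen.

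Set against wt, no member passed the test in any line. For the mean of the lines minus wt, 0 of 200 members and 0.0% of the 32373 features tested passed edgeR's quasi-likelihood test at an adjusted p of 0.05, and 2 members and 2.87% of the features had an unadjusted p under 0.05. DESeq2 called 0 members and 0.181% of its features. In mdagg-2 edgeR called 0 members (0.00309% of all features), with 3 at an unadjusted p under 0.05 (3.65% of all), and DESeq2 called 0 (0.0932%). For mdagg-3 edgeR called 0 members (0.0%), with 6 unadjusted (3.13%), and DESeq2 called 0 (0.107%). For mdagg-4 edgeR called 0 members (0.00309%), with 1 unadjusted (2.94%), and DESeq2 called 0 (0.269%). The unadjusted count of mdagg-3 depended on the libraries in the fit. With only the 4 libraries of mdagg-3 and wt, it was 27 members and 2370 of the 32373 features. In that fit edgeR called 0 members, with a smallest adjusted p of 0.134, and 1 feature in all. The same setting gave 4 members unadjusted (846 features) for mdagg-2 and 2 (1171 features) for mdagg-4. Calls were thus rare or absent among the features at large as well. Against the same wt libraries the median log2 difference of the members was 0.19 for mdagg-2, 0.21 for mdagg-3, and -0.20 for mdagg-4, while the median over all features tested lay between -0.004 and 0.014. Each of these medians depended on single libraries: that of mdagg-2 was -0.07 without its R1, that of mdagg-3 was 0.01 without wt R2, and that of mdagg-4 was -0.006 without its R2 and 0.02 without wt R1. Testing all 3 lines for differences among themselves, edgeR called 0 members (0.00309% of all features), with 2 at an unadjusted p under 0.05 (3.17%), and DESeq2 called 0 (0.192%). On the log2 CPM scale the 6 knock-out libraries all lay above both libraries of wt for 0 of 200 members (2.89% of the features tested) and all below for 0 (1.54%). Line by line, both libraries lay above wt for 12 members for mdagg-2 (15.3% of the features), 49 for mdagg-3 (16.9%) and 6 for mdagg-4 (13.5%), and below wt for 18 (14.7%), 27 (16.4%) and 9 (14.0%) of the 200 members.

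The 4 members with the most extreme log2 differences in the mean of the lines illustrate the spread. MD14G1037400 was at 637 and 663 TPM in the mdagg-2 pair, 538 and 663 in the mdagg-3 pair, 551 and 451 in the mdagg-4 pair, and 416 and 295 in wt. All 6 knock-out libraries were above both wt libraries in TPM, which was not so in log2 CPM after TMM scaling. Its mean was 584 ± 84.95 TPM in the knock-out libraries (SD, n = 6) and 356 ± 85.4 in wt (SD, n = 2), and edgeR gave a log2 difference of 0.72 ± 0.25 (SE, adjusted p = 1.0). It is 1 of 8 members with identifiers in field 14, whose median log2 differences from wt were 0.07 (mdagg-2), 0.23 (mdagg-3), and 0.26 (mdagg-4). MD16G1012400, a feature of 168 bases, averaged 2393 ± 922 TPM in the knock-out libraries (SD, n = 6) and 1505 ± 136 in wt (SD, n = 2), with 0.69 ± 0.37 as log2 difference (SE, adjusted p = 1.0 in edgeR). The highest value, 4029 TPM, was in mdagg-2 R2, and mdagg-4 R2 with 1358 TPM was below both wt libraries. MD07G1194500 was at 60.8 and 797 TPM in the mdagg-2 pair, 287 and 192 in the mdagg-3 pair, 592 and 1404 in the mdagg-4 pair, and 624 and 889 in wt, and edgeR gave a log2 difference of -0.71 ± 0.69 (SE, adjusted p = 1.0). MD03G1023100 followed it closely, with 50.02 and 658 TPM in the mdagg-2 pair, 312 and 178 in the mdagg-3 pair, 588 and 1119 in the mdagg-4 pair, and 563 and 756 in wt. Here edgeR gave a log2 difference of -0.66 ± 0.69 (SE, adjusted p = 1.0).

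The authors' deposited table lists 16 of the 200 members at an adjusted p under 0.05 in mdagg-3 (8.0%, against 1.49% of its features with an adjusted p), 2 of them higher and 14 lower. It lists 0 members in mdagg-2 (0.0639% of its features) and 0 for mdagg-4 (0.309%). In the authors' deposited table MD09G1079600 had a log2 fold change of 1.32 (adjusted p = 0.00449) and MD09G1163100 one of 1.21 (adjusted p = 0.0118) as the 2 higher members, and MD10G1287500 with -1.57 (adjusted p = 2.42e-06) and MD11G1149100 with -1.45 (adjusted p = 8.67e-05) had the smallest adjusted p among the lower ones. In the fit of all 8 libraries edgeR gave these 4 log2 differences of 1.32 ± 0.47, 1.22 ± 1.56, -1.56 ± 0.97 and -1.44 ± 0.99 (SE, adjusted p = 1.0 for each). The log2 values of the 2 sources differed by 0.01 or less, while the calls differed, and how the authors' fit was set up is not given in the sources used here. MD10G1287500, for example, was at 49.0 and 875 TPM in the mdagg-2 pair, 212 and 226 in the mdagg-3 pair, 585 and 1503 in the mdagg-4 pair, and 595 and 806 in wt. The mdagg-3 libraries were close together and below wt, while the mdagg-2 libraries lay on either side of both. DESeq2 on the 8 libraries called none of these 16.

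The members held a lower share of R2 than of R1 in 3 of the 4 groups, a difference that did not pass the test. The labels number 2 libraries in each group and the design text speaks of 2 independent experiments, without saying that a number marks the same experiment in every group. If it does not, the sign of R2 minus R1 is arbitrary in each group. The values below that join the groups then have no common meaning. The share of TPM averaged 30.1% in R2 libraries and 33.8% in R1 libraries, and the difference of R2 minus R1 was -5.29 percentage points in mdagg-2, 1.07 in mdagg-3, -4.88 in mdagg-4 and -6.06 in wt. The mean of these, -3.79, gave p = 0.25 in an exact permutation test over 16 sign patterns (two-sided, smallest possible p = 0.125). Without mdagg-2 R1 and mdagg-4 R2, which leaves mdagg-3 and wt with both libraries, it was -2.49. Feature by feature, 74 of 200 members (37.0%) were lower in R2 in all 4 groups on the log2 CPM scale, against 10.5% of the features tested, and 1 (0.5%) was higher in all 4, against 10.2%. In TPM, without TMM scaling, R2 was lower for 119 members in mdagg-2, 103 in mdagg-3, 142 in mdagg-4, and 134 in wt. In mdagg-3 and wt alone, on the log2 CPM scale, without the libraries that stood apart, 86 members (43.0%) were lower in R2 in both groups, against 20.4%, and 3 (1.5%) were higher, against 19.6%. Over the members, however, the R2 minus R1 differences of mdagg-3 and wt had a correlation of -0.604, so the sizes of the differences were not shared. With group in the fit, the log2 difference of R2 minus R1 had a median of -0.34 over the members and 0.001 over all features tested. No member passed edgeR's test (0 of 200, 0.0% of the features, smallest adjusted p = 0.415), with 54 members at an unadjusted p under 0.05, against 11.6% of the features. That count depended on single libraries: it was 17 without either mdagg-2 library, 20 without either mdagg-4 library, 87 without mdagg-3 R1 and 86 without mdagg-3 R2. Without mdagg-2 R1 and mdagg-4 R2 together it was 0, and the median over the members was -0.22. DESeq2 called 25 members, all lower, with 1.09% of its features called and 0.89% called lower.

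The members followed the pattern of the rest of the library, in opposite directions. The first principal component of log2 CPM over the 32173 other features tested held 46.1% of their variance, and its scores were -99.5 and 41.5 in the mdagg-2 pair, -43.0 and -40.3 in mdagg-3, 15.4 and 92.3 in the mdagg-4 pair, and -1.29 and 34.8 in wt. Of the 200 members, 152 (76.0%) had a negative correlation with these scores and 48 a positive one, against 50.1% negative among the other features. The correlation was below -0.7 for 107 members (53.5%) and above 0.7 for 20, against 16.7% and 16.2% of the other features. Each of these correlations is over 8 libraries that share their depth and scaling. The 152 members with a negative correlation held 34.4% and 27.0% of TPM in the mdagg-2 pair, 30.3% and 31.6% in the mdagg-3 pair, 26.7% and 19.95% in the mdagg-4 pair, and 30.1% and 23.1% in wt. The 48 with a positive one held 2.44% and 4.51% in the mdagg-2 pair, 3.32% and 3.11% in the mdagg-3 pair, 4.302% and 6.15% in the mdagg-4 pair, and 3.80% and 4.73% in wt. The members were divided by their levels in these same 8 libraries, so the opposite courses of these shares follow from the division. Without mdagg-2 R1 and mdagg-4 R2 the component of the remaining 6 libraries gave 146 negative members, 137 of them the same as before.

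**Figure D3:**
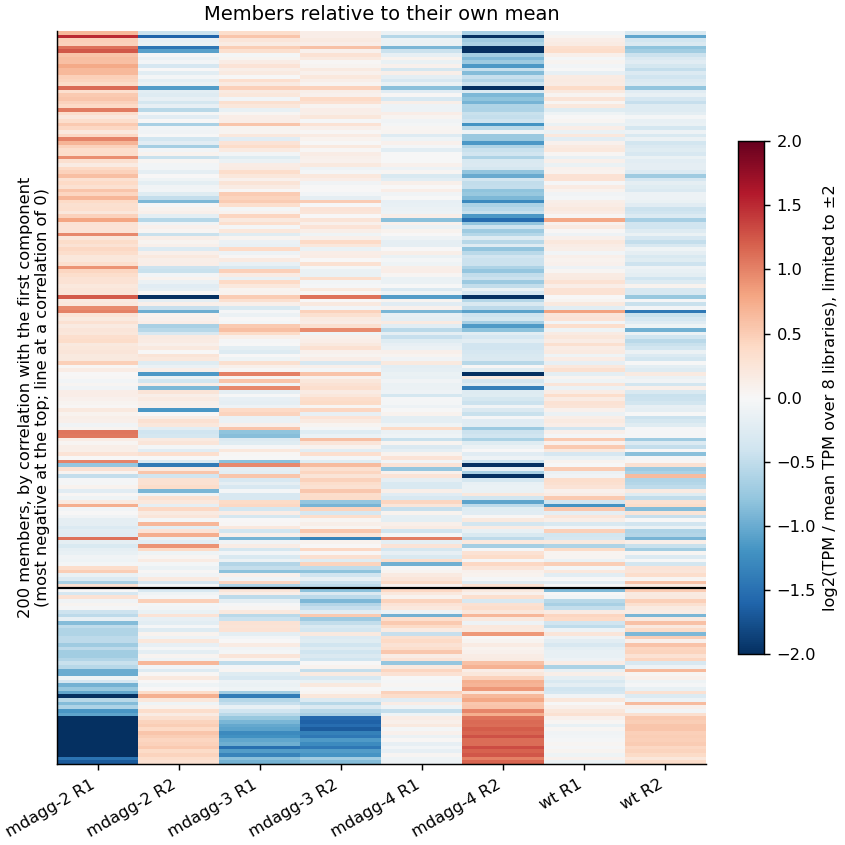
Level of each of the 200 members (rows) in each library (columns), as log2 of TPM over the member's own mean, limited to 2 either way, with rows ordered by their correlation with the first component of the other features. Above the line, the 152 members with a negative correlation are often highest in mdagg-2 R1 and lowest in mdagg-4 R2, and the block at the bottom shows the reverse. The rows are ordered by these same libraries, so this contrast follows in part from the order.

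The 2 libraries at the ends of the component were also at the ends of most members. On the log2 CPM scale mdagg-2 R1 was the highest library for 90 members and the lowest for 34, and mdagg-4 R2 was the highest for 23 and the lowest for 117. At least 1 of them was at an end for 166 members (83.0%), against 60.3% of all features tested.

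The members that ranged over more than 4-fold fell into 15 with a positive and 12 with a negative correlation with the component, a division made after their values were seen and therefore not tested. The 15 had median levels of 91.0 and 875 TPM in the mdagg-2 pair, 299.9 and 237 in the mdagg-3 pair, 593 and 1404 in the mdagg-4 pair, and 624 and 806 in wt. These medians were lowest in mdagg-2 R1 and highest in mdagg-4 R2, libraries of different lines, and those of wt lay between. The median correlation between 2 of the 15 was 0.979 over the 8 libraries, and the lowest was 0.645. All 15 were chosen by a wide range and a positive correlation with the same component, so high values here follow in part from the choice. Among the 15, 5 have a length of 312 bases and 3 have one of 411 bases, both multiples of 3. Over all 52311 features, 56 have the first length and 64 the second. The features of 312 bases ranged between 40.3 and 271 TPM in mdagg-2 R1 and between 1157 and 2101 TPM in mdagg-4 R2, with 481 to 836 and 778 to 1165 TPM in the wt libraries. Members of equal length may be copies that share reads, which was not tested. Of the 14 members at lower levels in mdagg-3 by the authors' deposited table, 13 had a correlation above 0.7 with the component, against 20 of all 200 members. Both mdagg-3 libraries score below both wt libraries on this component. A member lower in mdagg-3 than in wt is therefore drawn to a positive correlation by the same libraries, and the count follows in part from the choice. The 12 had median levels of 1462 and 504 TPM in the mdagg-2 pair, 1221 and 1411 in the mdagg-3 pair, 761 and 226 in the mdagg-4 pair, and 1166 and 616 in wt, and MD17G1079900 and MD09G1163100 are among them.

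The members' share of TPM moved with the rest of the library. Its correlation with the component of the other features, which was computed without the members, was r = -0.922 over 8 libraries (Pearson, exact permutation p = 0.00131) with Spearman's rho = -0.857 (exact permutation p = 0.0107). Without mdagg-4 R2 and wt R2, the libraries farthest from the median share, r was -0.919 (n = 6, exact permutation p = 0.0125). Without mdagg-2 R1 and mdagg-4 R2 it was -0.883 (n = 6, exact permutation p = 0.0222). Adjusted over the 2 relations computed, the permutation p of Pearson's r over 8 libraries was 0.00263. The second relation was with the TMM factor (the scaling factor that edgeR derives from a library's composition). It had r = -0.901 over 8 libraries, but r = -0.739 and Spearman's rho = -0.371 without mdagg-4 R2 and wt R2 (n = 6). It is given as a description, since a larger share of abundant features can itself lower that factor. Both measures of the first relation come from the same libraries, in which all shares add up to 1 total. Re-pairing the libraries breaks that tie. The permutation p therefore cannot separate the shared total from a relation beyond it, and r is read as a description. Within R1 or R2 alone there were 4 libraries, too few for a correlation.

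**Figure D4:**
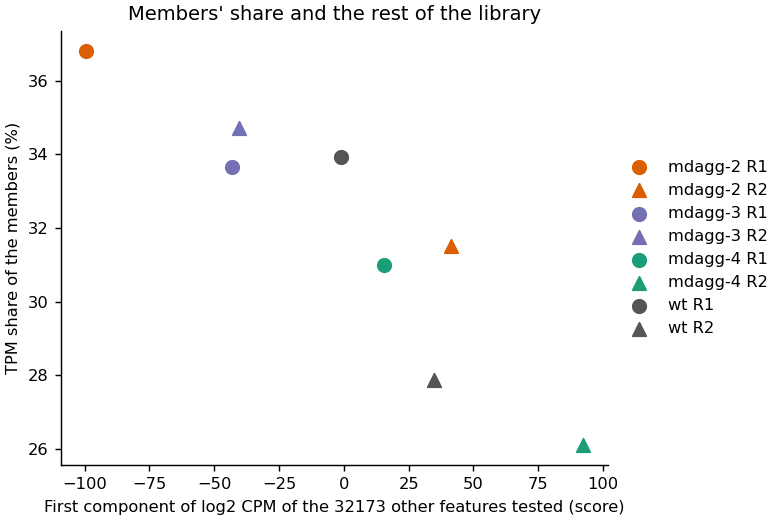
TPM share of the 200 members (%, vertical axis) against the score of each library on the first component of log2 CPM over the 32173 other features tested (horizontal axis), with circles for R1 and triangles for R2. The share falls along the component between mdagg-2 R1 at 36.8% and mdagg-4 R2 at 26.1%, and the wt libraries lie among the lines.

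At the median over pairs of libraries, the members accounted for somewhat more of the differences in composition than their share of TPM. The difference between 2 libraries was taken as 0.5 times the summed absolute difference in TPM share, which is the percentage of TPM that would have to be moved to make them equal. The median was 13.4% of TPM for 28 pairs of libraries (7.76% to 25.6%), of which the 200 members carried 35.8% (30.5% to 42.8%), while they held a median of 32.3% of TPM. Per unit of TPM the members differed 1.15 times as much as the other features (0.843 to 1.58). The 4 pairs of 1 group had a median difference of 14.5% of TPM, with 35.7% of it in the members, and the 24 pairs from different groups 13.1%, with 35.8%. The 12 pairs of a line and wt had a median of 13.1%, with 35.4% of it in the members. The members' part was thus of similar size within groups, between lines and against wt. Since pairs share libraries, these are descriptions. Without mdagg-2 R1 and mdagg-4 R2 the members' part was 33.6%.

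**Figure D5:**
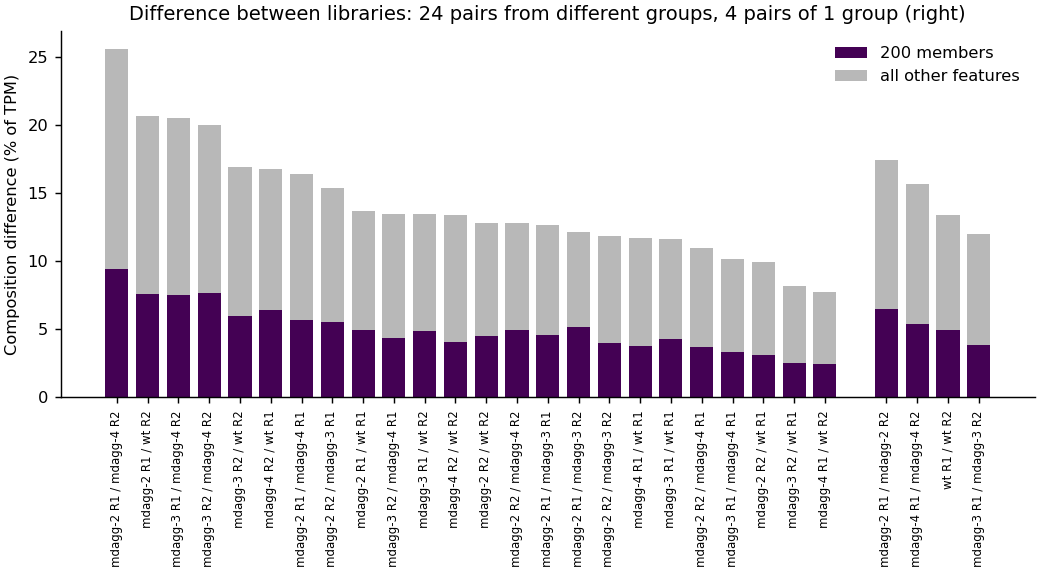
Composition difference (% of TPM) of each of the 28 pairs of libraries, with the part carried by the 200 members in dark and that by all other features in grey, and the 4 pairs of 1 group at the right. The largest difference, 25.6%, is between mdagg-2 R1 and mdagg-4 R2, and the members carry 30.5% to 42.8% of each bar.

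By rank, the first 10 features carried a median of 8.83% of the difference with 8.5% of TPM, ranks 11 to 200 carried 26.9% with 23.6%, the next 800 features carried 20.9% with 20.8%, ranks 1001 to 5000 carried 20.8% with 24.3%, and ranks 5001 to 52311 22.6% with 22.7%. Per unit of TPM, ranks 11 to 200 differed more than the other features in 25 of 28 pairs, and ranks 1001 to 5000 did so in 0 of 28. The 5 members with the largest contributions were MD17G1244400, MD17G1079900, MD09G1252100, MD15G1428700 and MD17G1281900, with 2.09%, 1.73%, 0.783%, 0.702% and 0.687% of the mean difference, 5.99% together. No single member thus carried more than 2.09% of it. A shift of the members' total share made up a median of 40.5% of their part of the difference, and exchange among the members the remainder.

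The members alone ordered the libraries much as the other features did. The first component of the members held 70.6% of their variance and had a correlation of 0.996 with that of all other features over the 8 libraries, a description since all libraries enter both. With the members and the other features each rescaled to 100%, the difference between 2 libraries had a median of 13.0% among the members and 12.4% among the other features, and the members had the larger one in 14 of 28 pairs. TMM factors were 0.913 and 1.03 in the mdagg-2 pair, 0.945 and 0.988 in the mdagg-3 pair, 0.986 and 1.11 in the mdagg-4 pair, and 0.992 and 1.04 in wt. Computed without the members they differed by at most 0.0142 on the log2 scale. TMM sets aside the features with the highest levels before it computes a factor. A small change was therefore largely set in advance, and it cannot tell whether the members decide the scaling. The TPM left for all other features was 63.2% in mdagg-2 R1 and 73.9% in mdagg-4 R2, a deviation from the mean over libraries of -0.11 and 0.12 on the log2 scale. The median log2 deviation of the other features tested was -0.13 and 0.20 in these libraries, against -0.02 and 0.05 in wt R1 and wt R2. The remaining share and this median differed in sign in mdagg-4 R1, where they were 0.02 and -0.02, and in mdagg-3 R2 they were -0.06 and -0.005. As TPM adds up to a fixed total, part of this relation is arithmetic.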

How the data were processed

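RNA-seq of 8 leaf libraries was analysed from Salmon tables deposited by the authors, which hold for each feature a length, an effective length, TPM and an estimated count, per the file headers. The submitters' processing notes name Salmon and DESeq2, with no version of either. Which genome build and which annotation were used is not given in the sources used here. TPM was scaled to the same sum per library by the authors' Salmon run, and the estimated (expected) counts in the deposited files are not normalized. The authors' deposited table also gives log2 fold changes and adjusted p-values of each line against wt, and these were copied as they stand.

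Members were the 200 features with the highest mean TPM. The members and the comparisons were chosen with earlier results of these data known. Estimated counts were rounded, filtered with filterByExpr, scaled with TMM and tested with edgeR 4.0.16 (R 4.3.3) in 1 quasi-likelihood fit of 8 libraries with 4 residual degrees of freedom. Benjamini-Hochberg adjustment ran over all 32373 features kept, with a threshold of 0.05. The SE of a log2 difference is its size over the square root of F. The contrast of R2 and R1 kept group in the fit. DESeq2 1.42.0 was an alternative. Log2 CPM used a prior count of 2 and log2 TPM a pseudocount of 0.5. Single values were compared with exact permutation tests over libraries, and the fit was tested on simulated data. Libraries are described as 2 independent experiments per group, and in no group did the counts of R2 and R1 agree to within counting noise (chi-square, averaged over features, of 48.8 to 92.9 by group). Identifiers were printed for the 10 most abundant members, the 5 largest contributors to composition differences, the 2 highest and 2 lowest log2 differences and the edge of the list. Others were named after their values were seen.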

Additional observations from a re-analysis of the deposited data

Results flagged for a closer look

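Among 15 values checked over the 6 knock-out libraries, 2 had 1 library far from the other 5. No rate for chance is set beside this count, since the values share libraries and a single high library raises the mean that chose a member. Without mdagg-2 R1, for example, the mean of MD15G1346300 was 3824 TPM, against 4461 TPM with it. MD17G1244400, the most abundant feature, was at 16886 TPM in mdagg-4 R2 and between 28402 and 33217 TPM in the other 5 knock-out libraries, with 27900 and 23087 TPM in wt. MD15G1346300 was at 8920 TPM in mdagg-2 R1 and between 2668 and 4687 TPM in the other 5, with 3840 and 4095 TPM in wt. These are the libraries at the ends of the first component, and the part of the library in these values was not tested.

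The members' share of TPM was higher in R2 than in R1 by 1.07 percentage points in mdagg-3, and lower in R2 by 4.88 to 6.06 points in the other 3 groups. With 1 difference per group, this contrast between groups was not tested.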

How the results depend on the processing

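The count of 0 members called in each contrast of lines and wt and among lines was 0 under RLE scaling, without the low-count filter, in DESeq2, with TMM factors computed without the members, with the replicate block, with only the 4 libraries of a line and wt, and with each library left out in turn. The contrast of R2 and R1 was the exception, with 25 members in DESeq2 and 0 to 0 with a library left out. The cause was not tested. The difference in TPM share between lines and wt ranged from -1.63 (without wt R2) to 4.43 percentage points with 1 library left out, and was 1.4 with the replicate block (exact permutation p = 0.75). The R2 minus R1 difference ranged from -5.41 to -3.03, and the correlation of the share with the component from -0.95 to -0.872. The members' part of the composition difference was 34.5% to 36.5% with 1 library left out, 24.2% by share of reads, 26.3% for 100 features and 47.7% for 500, which follows from the smaller or larger share these hold. The largest shift of a scaling factor without the members was 0.00198 on the log2 scale with RLE. RLE takes a median over features, which so small a part of them can move only little. The alternative without mdagg-2 R1 and mdagg-4 R2 was chosen after the data were seen and changed no call. Same-numbered libraries did not deviate together in all pairs of groups (r of the R2 minus R1 differences over all features tested between -0.314 for mdagg-3 and wt and 0.529 for mdagg-2 and mdagg-4). Over the members alone, r was -0.604 and 0.698 for these pairs of groups, again the lowest and the highest. The main comparisons of lines and wt did not use the numbers. The R2 minus R1 results did line them up across groups, and they hold only if a number marks the same experiment in each. For the members, counting error was 0.682% of the reads at the median, while the SD within groups had a median of 0.353 on the log2 scale. This counting error leaves out the division of reads between features, which was not measured, and depth as a limit was not tested.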
